A study of Mus musculus with 12 samples.

Results

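The blank U2OS transcriptome was described from 3 RNA-Seq libraries, blank replicates 1, 2 and 3, which were taken by their labels from the 12 libraries of the series, and across all 58735 listed genes. U2OS is an established human osteosarcoma line, and the blank cells served as the reference of the study, which asked how the splicing factor SRSF1 acts in osteosarcoma. The other 9 libraries are labelled as U2OS cells as well, although the study's methods place the final transient transfections in HOS, another osteosarcoma line, with 3 replicates each of cells in which LINC01134, a long non-coding RNA, was overexpressed (OE-LINC01134) and of cells given one of the siRNAs against SRSF1 (siSRSF1-2 and siSRSF1-3). No treatment, dose or time was given for the blank cells, and no label said whether replicates came from separate cultures, so the spread between them may be technical. The study's methods speak of biological replicates, but of a number other than the 3 labelled, and a figure legend speaks of 3 experimental repeats. The labels gave the organism as mouse, whereas the genes were listed under human Ensembl identifiers, and the libraries were treated as human.

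Osteosarcoma is a bone tumor whose cells are defined by their production of osteoid, the collagen-rich matrix laid down by osteoblasts. Osteoblasts arise from mesenchymal progenitors under the transcription factors RUNX2 and then SP7, and they secrete type I collagen, a fiber built from the products of COL1A1 and COL1A2, before the late matrix proteins osteocalcin (BGLAP) and bone sialoprotein (IBSP). U2OS is known for lengthening its telomeres without telomerase, the ALT pathway, and for lacking the inhibitor p16, a product of CDKN2A.

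Gene levels were given as FPKM, the fragments per gene scaled to the gene's length and to the size of the library, which allows levels of different genes to be compared per length. Reads on genes numbered 27959168 in replicate 1, 26237763 in replicate 2 and 30482881 in replicate 3, against 26237763 to 32954539 over all 12 libraries. In a gene of 1 kb, 1 read was worth 0.0306 to 0.0361 FPKM in the blank libraries. A count of 0 reads still allows up to 3 reads, 0.0917 to 0.108 FPKM for such a gene, and this limit covers counting error alone. A gene was counted as expressed at a mean FPKM of at least 1 over the blank libraries.

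Mean levels ran from 0 to 11109 FPKM, the level of MT-CO1. At a mean FPKM of at least 1, 14508 genes were expressed, 24.7% of those listed. Among them were 11298 of 19951 protein-coding genes (56.6%) and 3210 of 38784 other genes (8.28%). The single libraries gave 14233, 14674 and 14617 expressed genes in replicates 1, 2 and 3, so replicate 1 held the fewest. The median protein-coding gene stood at 1.90 FPKM, the 90th percentile at 21.5 FPKM and the 99th at 138 FPKM. Of the protein-coding genes, 4064 lay between 10 and 100 FPKM, 279 between 100 and 1000 FPKM and 21 at 1000 FPKM or above.

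A few genes held much of the measured RNA. The 10 genes of highest mean held 19.1% of the summed FPKM, and the top 100 held 38.6% ± 0.579 (SD, n = 3). The first 50% of the sum lay in 335 genes, and 90% lay in 6150 genes. Of the top 100 genes, 88 were protein coding, 33 encoded ribosomal proteins, 19 lay on the mitochondrial genome and 5 were pseudogenes.

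**Figure D1:**
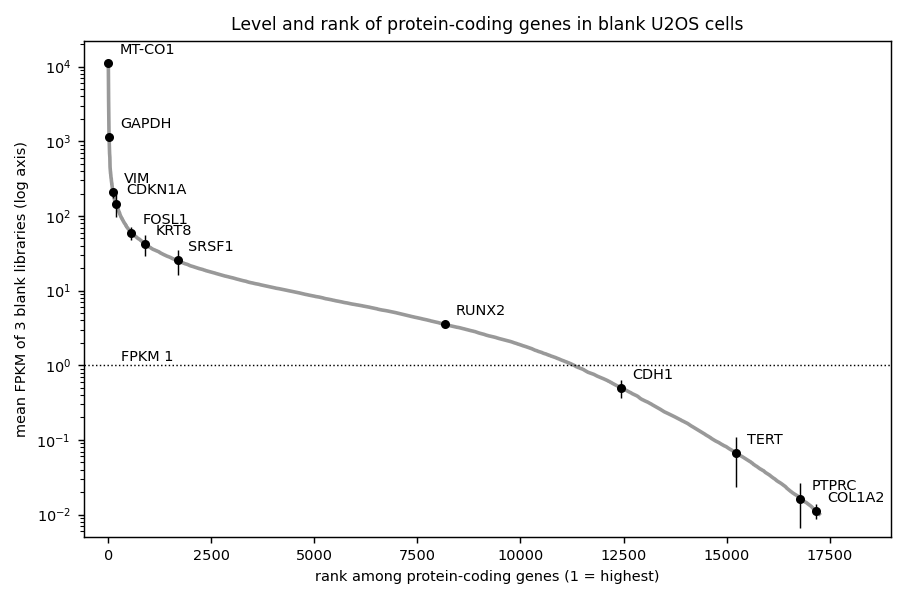
Mean FPKM of the 3 blank libraries (log axis) against rank among protein-coding genes, with named genes as points and error bars of 1 SD (n = 3; the lower bar is cut at 90% of the mean). The curve crosses 1 FPKM after 11298 genes, and genes under 0.01 FPKM are not drawn.

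Mitochondrial transcripts led the ranking. MT-CO1, a catalytic subunit of cytochrome c oxidase, stood at 11271, 10748 and 11309 FPKM in replicates 1, 2 and 3. MT-CO2, its copper-binding partner, stood at 9849, 9658 and 10366 FPKM. In both genes replicate 2 was the lowest library and replicate 3 the highest, so replicate 1 did not stand apart. MT-CO3 followed with 9088, 7274 and 8059.7 FPKM, and MT-ATP6, a subunit of ATP synthase, with 7092, 4982 and 5262 FPKM, both highest in replicate 1. MT-RNR2, the large mitochondrial ribosomal RNA, went the other way and was lowest in replicate 1, at 2284 FPKM against 3320.1 and 3492 FPKM.

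All 37 genes of the mitochondrial genome were expressed, while none of the 64 nuclear genes that carry a mitochondrial gene name reached 1 FPKM. Together the mitochondrial genome held 23.2% ± 0.484 (SD, n = 3) of the summed FPKM but 6.70% of the reads, because its genes are short and FPKM divides by length. The first nuclear gene in the ranking was FTL, the light chain of the iron store ferritin, at 3096, 2927 and 3010.2 FPKM. EEF1A1, the elongation factor that delivers aminoacyl-tRNA to the ribosome, stood at 1546, 1573 and 1667 FPKM. Both genes were nearly level over the 3 libraries. The metallothionein MT2A, a binder of zinc and copper, reached 1286, 1711 and 1813 FPKM and was lowest in replicate 1.

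The machinery of translation was present almost in full. Of 80 genes for cytosolic ribosomal proteins, 78 were expressed, and together they held 7.51% of the summed FPKM. RPS12, the highest of them, stood at 1269, 1326 and 1344 FPKM. Of 78 mitochondrial ribosomal protein genes, 77 were expressed, as were 80 of 88 nuclear genes of oxidative phosphorylation, 35 of 39 proteasome genes and 59 of 63 translation factors. Several of these families have near-identical pseudogene copies, 520 processed pseudogenes passed 1 FPKM, and the deposited values do not show how shared reads were assigned.

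The bone program was expressed in part. Of 8 osteoblast transcription factors, 5 reached 1 FPKM, near the 56.6% of all protein-coding genes, so the count does not set the list apart. RUNX2, which commits progenitors to the osteoblast fate, stood at 3.58, 3.35 and 3.71 FPKM, a mean of 3.55 ± 0.180 (SD, n = 3) and percentile 59.1 of the protein-coding genes. Its values overlapped closely in all 3 libraries. SOX4 was higher, at 6.84, 8.06 and 8.63 FPKM, and MSX2 stood at 2.07, 3.15 and 3.66 FPKM. SP7, which acts after RUNX2, held 0, 3 and 1 reads, no more than the limit for a count of 0. TWIST1 had 0, 11 and 11 reads, and DLX5 stayed under 1 FPKM in each library, at 0.207, 0.986 and 0.700 FPKM. The highest of the list was FOSL1, an AP-1 subunit, at 46.6, 65.4 and 66.4 FPKM (percentile 97.2), lowest in replicate 1.

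The matrix genes divided in the same manner, with 8 of 12 expressed, also not far from the 56.6% of all protein-coding genes. SPARC, the collagen-binding protein osteonectin, stood at 111, 51.9 and 54.99 FPKM, and SPP1, the mineral-binding protein osteopontin, at 34.7, 54.9 and 59.3 FPKM. Replicate 1 was the highest library for SPARC and the lowest for SPP1. COL1A1 was at 39.7, 24.4 and 23.4 FPKM, whereas its partner chain COL1A2 was almost silent, with 4, 4 and 3 reads in the 3 libraries. ALPL, the phosphatase of mineralization, was even across the libraries at 5.30, 5.73 and 5.94 FPKM. The late genes were near 0, BGLAP with 6, 13 and 4 reads and IBSP with 1, 1 and 0 reads.

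Markers of the neighboring bone cells were low. None of the 5 osteocyte genes and none of the 6 osteoclast genes reached 1 FPKM, with PHEX the highest osteocyte gene at 0.255, 0.265 and 0.263 FPKM. CTSK, the osteoclast protease, averaged just under the threshold, at 1.05, 0.634 and 1.31 FPKM. Among 6 chondrocyte genes, SOX9, the master regulator of cartilage, was well expressed at 33.7, 18.4 and 18.8 FPKM and ACAN, the cartilage proteoglycan aggrecan, stood at 1.29, 1.07 and 1.21 FPKM, while COL2A1 had 3, 2 and 7 reads. In bulk RNA a low level in every cell and a high level in few cells cannot be told apart.

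Mesenchymal genes were expressed most fully, 11 of 13, and joined by keratins. VIM, the intermediate filament of mesenchymal cells, stood at 244, 181 and 195 FPKM, 207 ± 33.2 (SD, n = 3) and rank 110 among protein-coding genes. FN1, fibronectin, was at 61.3, 80.9 and 79.4 FPKM and CD44, the hyaluronan receptor, at 26.2, 33.3 and 34.0 FPKM, both lowest in replicate 1. ZEB1 was at 5.28, 6.29 and 6.26 FPKM, but its relative ZEB2 had 0, 28 and 54 reads over a long gene, under 0.1 FPKM. Of 10 epithelial genes, 5 reached 1 FPKM, near the 56.6% of all protein-coding genes. KRT18 and KRT8, the keratin pair of simple epithelia, stood at 126, 68.6 and 71.4 FPKM and at 58.4, 34.6 and 35.1 FPKM, and replicate 1 was highest in both. CDH1, E-cadherin, stayed below 1 FPKM at 0.345, 0.570 and 0.594 FPKM, and GRHL2 had 0, 1 and 2 reads.

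**Figure D2:**
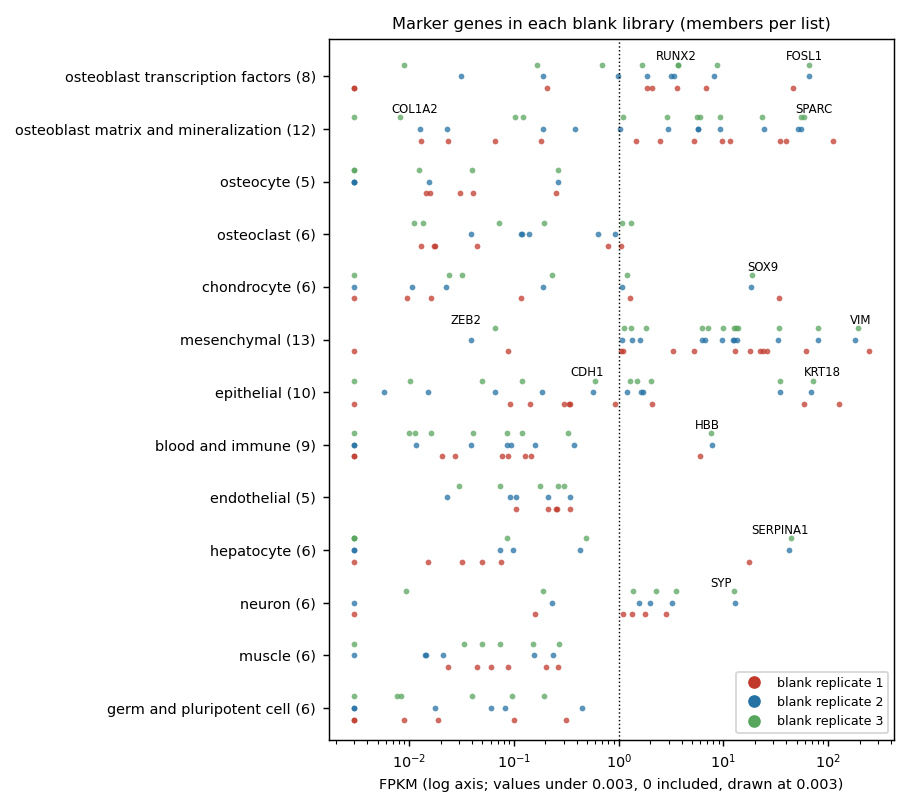
FPKM (log axis) of each marker gene in each blank library, by list, with the number of genes in brackets. Points under 0.003 FPKM are drawn at 0.003, the dotted line marks 1 FPKM, and in the lists below the epithelial row 6 genes have a mean right of that line.

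Markers of other lineages were mostly under 1 FPKM, apart from the neuron list, in which 4 of 6 genes reached it. The osteocyte and osteoclast lists and those of blood and immune cells, endothelium, hepatocytes, neurons, muscle and germ or pluripotent cells, 8 lists with 49 genes, held 6 genes of at least 1 FPKM, and CD3E, FGA and NANOG had 0 reads in all 3 libraries. PTPRC, the leukocyte antigen CD45, had 7, 3 and 3 reads, and ALB, albumin, had 3, 0 and 0 reads. HBB, the beta chain of adult hemoglobin, was an exception at 5.93, 7.72 and 7.60 FPKM, from 214, 286 and 324 reads. SERPINA1, the secreted inhibitor alpha-1 antitrypsin, was another at 17.7, 42.6 and 44.0 FPKM. The other 4 were from the neuron list, in which SYP, a protein of synaptic vesicles, stood at 2.80, 12.9 and 12.5 FPKM and SNAP25, RBFOX3 and SLC17A7 had means between 1.34 and 2.68 FPKM. Replicate 1 was the lowest library for HBB, SERPINA1 and all 4 neuron genes.

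HOX genes, which mark the position of a cell along the body axis, were expressed in 21 of 40 cases. HOXB9 was the highest, at 32.5, 30.7 and 30.9 FPKM, and was even across the libraries. HOXB7 followed at 27.8, 18.6 and 16.6 FPKM and HOXC9 at 11.96, 9.68 and 9.58 FPKM, both highest in replicate 1. Of 1553 genes listed as transcription factors, 902 were expressed (58.1%), close to the 56.6% of all protein-coding genes. The share differed between families, with 10 of 11 E2F and 20 of 22 MYB family genes, 389 of 630 C2H2 zinc finger genes, 43 of 101 bHLH genes, 66 of 193 homeobox genes and 3 of 16 POU genes. YBX1, a DNA- and RNA-binding protein, was the highest of all at 969, 756 and 778 FPKM, before HMGA1, an architectural chromatin protein, at 611, 754 and 712 FPKM and ATF4, a factor of the stress response, at 311, 298 and 296 FPKM.

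Of 11 cell cycle inhibitors and tumor suppressors, 9 were expressed. CDKN2A, at chromosome 9, 21967753 to 21995301, had 0 reads in all 3 blank libraries, which allows up to 0.0250 FPKM. Its neighbor in function CDKN2B, the inhibitor p15, was expressed at 2.04, 3.27 and 2.97 FPKM. RB1, the retinoblastoma protein, stood at 6.26, 6.49 and 6.49 FPKM, with closely spaced libraries. CDKN1A, the cell cycle inhibitor p21, was far higher at 90.6, 178 and 172 FPKM, with replicate 1 well below the others. TERT, the catalytic subunit of telomerase, had 4, 15 and 8 reads, a mean of 0.0664 ± 0.0432 FPKM (SD, n = 3). ATRX, whose loss is common among ALT tumors, was at 5.76, 4.75 and 5.11 FPKM, and its partner DAXX at 28.4, 26.1 and 27.5 FPKM. FPKM per gene do not show whether a transcript is whole.

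All 12 proliferation drivers were expressed. PCNA, the clamp of the replication fork, stood at 162, 84.2 and 89.5 FPKM and TOP2A, a topoisomerase of dividing cells, at 77.5, 48.8 and 49.7 FPKM, with replicate 1 above both other libraries in each. MYC was at 81.9, 94.9 and 92.3 FPKM and CDK4 at 51.5, 46.1 and 47.1 FPKM, and in these the libraries lay close together. Of 20 receptor tyrosine kinases, 12 were expressed, near the 56.6% of all protein-coding genes. They were led by AXL at 56.0, 56.3 and 53.5 FPKM, EPHA2 at 50.6, 49.6 and 48.2 FPKM and MET at 15.3, 13.2 and 13.1 FPKM. None of the 12 passed a 2-fold difference between replicate 1 and both others. PDGFRA lay under the threshold at 0.768, 1.12 and 1.05 FPKM, while ERBB4 had 16, 15 and 8 reads and KIT 0, 3 and 1 reads.

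Nuclear hormone receptors were expressed in 7 of 14 cases, near the 56.6% of all protein-coding genes. The retinoic acid receptor RARA was the highest at 15.4, 10.6 and 10.99 FPKM. The vitamin D receptor VDR was even at 4.77, 4.63 and 4.63 FPKM, and so was the glucocorticoid receptor NR3C1 at 4.51, 4.81 and 4.75 FPKM. The receptors of estrogen and progesterone were near 0, ESR1 with 13, 30 and 18 reads and PGR with 0, 0 and 2 reads.

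SRSF1, the splicing factor that the study depleted, stood at 35.9, 19.8 and 20.5 FPKM in the blank replicates, 25.4 ± 9.14 (SD, n = 3) and rank 1683 among protein-coding genes. Its level in replicate 1 was 1.82 and 1.75 times that of replicates 2 and 3. In the siRNA libraries SRSF1 lay between 3.33 and 7.90 FPKM, below every blank library, and in the OE-LINC01134 libraries between 29.6 and 31.8 FPKM, above blank replicates 2 and 3 and below replicate 1. Of the 12 SR proteins, a family that binds exonic enhancers, 11 were expressed, SRSF5 highest at 61.9, 63.1 and 65.1 FPKM, and SRSF12 was under the threshold at 0.0238, 0.0928 and 0.128 FPKM. LINC01134 itself was low in the blank cells, with 89, 60 and 66 reads or 0.791, 0.519 and 0.497 FPKM, against 891, 1279 and 878 FPKM in the OE-LINC01134 replicates. Of the other genes the study names, MALAT1 stood at 62.9, 54.2 and 53.8 FPKM, SNHG16 at 15.7, 14.1 and 15.1 FPKM and the RNA demethylase ALKBH5 at 29.5, 21.7 and 21.4 FPKM. The imprinted RNA H19 was near 0 with 4, 30 and 30 reads, and WWOX-AS1 had 0, 0 and 1 reads.

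At the other end, 21275 genes had 0 reads in all 3 blank libraries, 1887 of them protein coding (9.46% of these), and 16139 genes had 0 reads in all 12 libraries. Families restricted to single tissues held many of them. Of 386 olfactory receptors, 257 had 0 reads and 3 were expressed, OR51B5, OR2W3 and OR51B4. Of 113 keratin associated proteins of hair, 85 had 0 reads and 2 were expressed, and of 45 defensins, 26 had 0 reads. None of 21 interferon ligands reached 1 FPKM and 16 had 0 reads, whereas 7 of 15 interferon-stimulated genes were expressed, IFI6 highest at 35.4, 50.6 and 50.7 FPKM. Taste receptors held 1 expressed gene of 27 and protocadherins 5 of 67.

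Cancer-testis antigens are genes of the germ line that tumors often express. Of 68 genes of the MAGE, GAGE, SSX, PAGE and XAGE families, which hold such antigens, 30 stood at 1 FPKM or more. The list was taken by family name and takes in members such as MAGE family member D4. Not all members are restricted to the germ line, so the count is not one of restricted genes alone. PAGE2 stood at 140.5, 146 and 144 FPKM and MAGEA4 at 144, 91.7 and 97.0 FPKM. PAGE2 was even over the libraries, and MAGEA4 was highest in replicate 1. PAGE2 and PAGE2B are close copies, so their separate values are uncertain. Keratins were expressed in 11 of 55 cases, with the hair keratin KRT81 at 481, 341 and 320.1 FPKM above KRT18. Collagens and their enzymes were expressed in 24 of 50 cases, with COL6A2 at 34.3, 70.0 and 68.3 FPKM and COL4A2 at 51.0, 44.7 and 41.7 FPKM, and integrins in 16 of 30 cases, with ITGB1, the shared beta chain, at 176, 150.3 and 154 FPKM. The collagen and integrin counts were not far from the 56.6% of all protein-coding genes.

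Replicate 1 differed from replicates 2 and 3 by far more than these differed from each other. Over the 14508 expressed genes, 1261 differed by more than 2-fold between replicates 1 and 2 (8.69%), 1312 between replicates 1 and 3 (9.04%) and 225 between replicates 2 and 3 (1.55%). Folds were taken on log2(FPKM + 0.1), which understates the difference of low genes. The correlation across these genes was 0.934 for each pair with replicate 1 and 0.983 for replicates 2 and 3, as a description, since genes are not replicates. Among genes of at least 100 reads, the spread of a pair was 5.73 and 5.84 times the counting error where replicate 1 took part, and 1.53 times for replicates 2 and 3. Replicate 1 had the middle read total of the group, and its mitochondrial share was 22.7% of FPKM against 23.03% and 23.7%. The part of either in the difference was not tested.

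**Figure D3:**
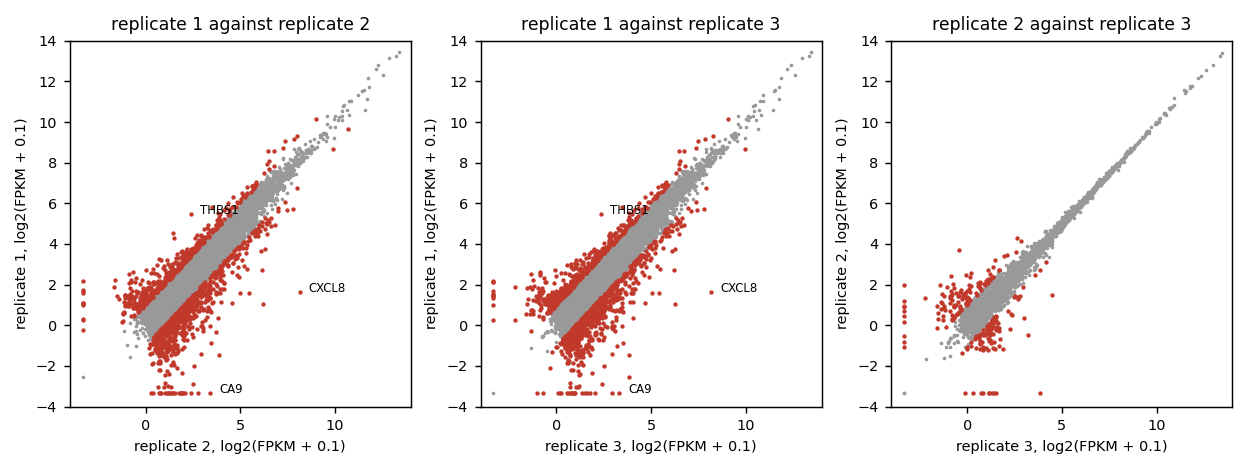
log2(FPKM + 0.1) of each expressed gene in one blank library against another, one panel per pair, with genes past 2-fold in red. Both panels with replicate 1 show a broad band with 1261 and 1312 red genes, and the panel of replicates 2 and 3 a narrow one with 225, mostly at low FPKM.

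In 303 genes replicate 1 was more than 2-fold above both other blank libraries (2.09% of the expressed genes), and in 691 it was more than 2-fold below both (4.76%). The same count gave 32 genes above (0.221%) and 55 below (0.379%) for replicate 2, and 31 above (0.214%) and 71 below (0.489%) for replicate 3. A gene low in replicate 1 can reach a mean of 1 FPKM through replicates 2 and 3, whereas a gene high in it must do so largely through replicate 1. The filter thus sets the split in part. Without it, replicate 1 was higher in 1553 genes and lower in 2056, or 43.0% higher. When FPKM were rescaled to the read total of each library the split of replicate 1 moved from 30.5% to 18.8% higher genes, 206 higher and 890 lower. That rescaling changed the median difference of all expressed genes by -0.12 on the log2 scale, and conversion to TPM by -0.09. When a single other library was used, replicate 1 was higher in 469 genes without replicate 2 and in 441 without replicate 3. Replicate 1 had no replicate of its own, and the library was singled out with its values known, so the counts are descriptions and no test was made. Genes of the other types took part more often, with 115 higher and 317 lower of 3210 against 188 higher and 374 lower of 11298 protein-coding genes. They also had fewer reads, and 41 of the higher and 42 of the lower genes had under 10 reads on average.

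Among protein-coding genes of a mean of at least 5 FPKM, the largest difference above replicates 2 and 3 was that of THBS1. THBS1, the matrix protein thrombospondin, stood at 44.5, 5.18 and 5.02 FPKM, which put replicate 1 at 8.59 and 8.86 times the others. TGM2, a transglutaminase that crosslinks matrix proteins, was at 55.5, 11.4 and 11.1 FPKM. CTGF, connective tissue growth factor, was at 382, 87.6 and 88.9 FPKM. In each of these replicates 2 and 3 were nearly equal and replicate 1 lay more than 4 times above them. TNFRSF11B, osteoprotegerin, the decoy receptor that restrains osteoclasts, was at 9.71, 2.94 and 2.89 FPKM, and KRT80 at 45.7, 13.9 and 14.1 FPKM. Histones among the other 5 of the 10 largest differences of this kind were HIST1H1C (375, 109.8 and 108 FPKM), HIST1H2BK (545, 163 and 177 FPKM) and HIST1H2AC (79.5, 24.3 and 25.5 FPKM). The rest were the tubulin TUBA4A (12.4, 3.75 and 3.78 FPKM) and the protease FAM111B (11.9, 3.61 and 3.47 FPKM).

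The chaperone list had the largest median difference of the lists in favor of replicate 1. In it 6 of 12 genes were past 2-fold, against 2.09% of all expressed genes. The median difference of replicate 1 from the mean of the others was 1.01 on the log2 scale over 12 heat shock and chaperonin genes, against 0.05 over all expressed genes. All 12 lay above 0. HSP90AB1, the constitutive HSP90, stood at 1141, 513 and 542 FPKM, HSPA8, the constitutive HSP70, at 248, 84.1 and 88.5 FPKM and the small heat shock protein HSPB1 at 232, 112 and 109.9 FPKM. Replicate 1 was at more than 2 times each other library in all 3 genes. HSPA1A, the inducible HSP70, was much lower at 12.2, 5.24 and 4.59 FPKM, and it has a near-identical copy, so its own level is uncertain.

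Histone and cell cycle lists had medians above that of all genes. Past 2-fold upward were 8 of 19 histone, 4 of 20 DNA replication and 3 of 22 G2/M genes, against 2.09% of all expressed genes. Of 72 histone genes, 19 were expressed, with a median difference of 0.94 on the log2 scale. Over 20 DNA replication genes the median difference was 0.80, all 20 lay above 0, and FEN1, MCM4, MCM7 and UHRF1 passed 2-fold. MCM7, a subunit of the replicative helicase, stood at 132, 56.3 and 55.2 FPKM. Over 22 genes of G2/M and mitosis the median was 0.63, again with all 22 above 0, and CCNB1, CENPF and KIF20A passed 2-fold, CCNB1, the mitotic cyclin, at 107, 52.2 and 52.7 FPKM. The tubulins were a family added later, with values of these data known. Of 17 expressed tubulins 5 passed 2-fold at a median of 0.68, among them TUBB at 571, 225 and 233 FPKM. TUBB is also one of the 10 reference genes of the lists.

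Smaller differences in the same direction were seen in other pathways. The 35 expressed proteasome genes had a median of 0.51 and the 16 genes of cholesterol biosynthesis a median of 0.38, with all 16 above 0 and none past 2-fold. SR splicing factors had a median of 0.36 with SRSF2 past 2-fold at 55.5, 23.6 and 27.0 FPKM. CDK6 was the one proliferation driver past 2-fold, at 17.2, 7.23 and 7.65 FPKM. Of all expressed genes 2.09% were past 2-fold upward, and nothing is read from a single gene of a list. By contrast, the 78 cytosolic ribosomal protein genes had a median of -0.01, with 35 above 0 and 43 below.

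**Figure D4:**
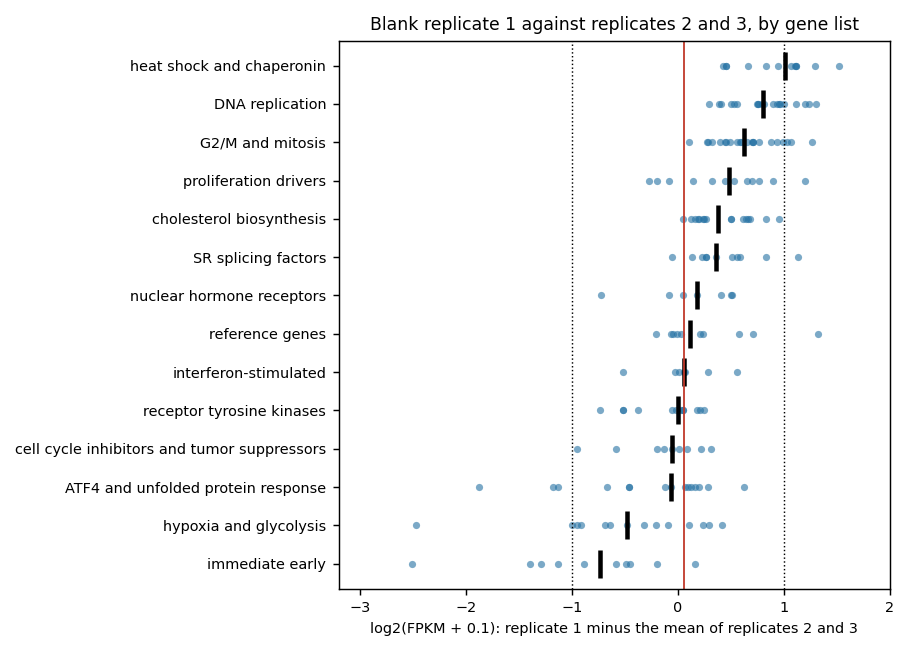
Difference of replicate 1 from the mean of replicates 2 and 3 in log2(FPKM + 0.1) for each expressed gene (points) of 14 of the lists by symbol, with the list median as a black bar. Marker lists of cell types and the families are not drawn. The red line is the median of all expressed genes, 0.05, the dotted lines mark 2-fold, CA9 at -6.69 in the hypoxia list lies left of the axis, and the medians drawn run from 1.01 for heat shock and chaperonin genes to -0.73 for immediate early genes.

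Of the 10 protein-coding genes of that level with the largest differences below replicates 2 and 3, CA9 came first and CXCL8 next. CXCL8, the neutrophil attractant interleukin 8, at chromosome 4, 73740506 to 73743716, stood at 2.97, 281 and 291 FPKM. Replicates 2 and 3 held 94.7 and 97.8 times the level of replicate 1, with 18184 and 21609 reads against 187. CCL20, a chemokine for lymphocytes and dendritic cells, was at 6.41, 72.0 and 73.6 FPKM. CSF2, the growth factor GM-CSF, was at 2.02, 23.4 and 25.1 FPKM, and IL24 at 0.876, 10.5 and 10.9 FPKM. In all of these replicates 2 and 3 were close to equal and replicate 1 was more than 10-fold below. MMP1, the interstitial collagenase, was at 2.86, 43.2 and 42.9 FPKM and SPRR2D, a protein of the cornified envelope, at 1.95, 74.0 and 77.1 FPKM. The remaining named genes were BASP1 (0.277, 7.54 and 7.61 FPKM), the apoptosis inhibitor BCL2A1 (1.16, 14.02 and 16.2 FPKM), SLAMF9 (2.91, 32.1 and 33.6 FPKM) and CA9.

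CA9, a carbonic anhydrase that is a known marker of hypoxia, showed the largest difference of all on the log2(FPKM + 0.1) scale. It had 0 reads in replicate 1 and 505 and 538 reads in replicates 2 and 3, the latter 10.6 and 9.85 FPKM. NDRG1, another gene known to respond to hypoxia, was at 12.3, 68.7 and 68.9 FPKM. Over the 15 expressed genes of the hypoxia and glycolysis list the median difference was -0.48, with 11 below 0 and 4 above. CA9 and NDRG1 were the only ones of the list past 2-fold, against 4.76% of all expressed genes past it downward. VEGFA, the growth factor of vessels, was at 10.4, 16.8 and 15.8 FPKM and did not pass.

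Immediate early genes, which respond within minutes to growth signals and stress, had a median of -0.73 over 10 expressed genes, with 9 below 0. EGR1 stood at 13.6, 78.3 and 77.6 FPKM, JUNB at 31.3, 84.6 and 80.7 FPKM, IER3 at 67.6, 164 and 168 FPKM and ATF3 at 8.48, 18.0 and 19.5 FPKM. Those were the 4 of 10 past 2-fold, against 4.76% of all expressed genes past it downward. JUN, at 52.8, 101 and 95.0 FPKM, fell short of 2-fold. GDF15, a stress cytokine, was also past 2-fold at 29.0, 99.01 and 96.4 FPKM. The 15 genes of the ATF4 and unfolded protein response were spread on both sides, at a median of -0.06, with DDIT3 (30.1, 114 and 108 FPKM) and TRIB3 (54.9, 125 and 124 FPKM) past 2-fold beside ATF3.

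The families of secreted signals were added after these values were seen. Of 43 chemokine ligands, 14 were expressed and CXCL8, CCL20, CXCL1, CXCL3 and CCL3 passed 2-fold downward. Of 38 interleukins, 6 had a mean of 1 FPKM or more and 5 of these passed 2-fold downward. A mean of 1 FPKM can be reached through replicates 2 and 3 alone, as by IL24 and CXCL1. The counts of chemokines, interleukins and metallopeptidases are thus set in part by the filter. Nothing is read from them beside the 4.76% of all expressed genes. IL1A, an alarm cytokine, was at 6.73, 40.7 and 43.6 FPKM and IL11 at 2.91, 15.4 and 16.2 FPKM. IL18 was the exception, higher in replicate 1 at 77.9, 43.8 and 44.6 FPKM. Of 11 expressed matrix metallopeptidases, MMP1, MMP3, MMP9, MMP10 and MMP19 passed 2-fold downward, with MMP3 the highest at 49.6, 129 and 136 FPKM, whereas MMP2 (39.8, 54.2 and 55.1 FPKM) and MMP14 (36.2, 45.4 and 44.9 FPKM) did not.

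Bone genes fell on both sides. SPARC and TNFRSF11B were past 2-fold upward in replicate 1, and BMP2, a bone morphogenetic protein that drives osteoblast formation, was past 2-fold downward at 2.46, 9.39 and 9.37 FPKM. Its relative BMP4 was higher in replicate 1, at 11.5, 5.71 and 5.66 FPKM. The 8 expressed matrix genes had a median of 0.59 and the 5 expressed osteoblast transcription factors one of -0.28, none of the latter past 2-fold. Over all expressed genes, 2.09% were past 2-fold upward and 4.76% downward. ESRP1, an epithelial splicing regulator, was at 0.304, 1.70 and 2.06 FPKM. NT5E, the mesenchymal surface enzyme CD73, had 11, 172 and 194 reads.

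The other 9 libraries placed these differences. For the 691 genes lower in replicate 1, replicate 1 lay within the range of those 9 libraries in 399 (57.7%, against 70.0% of all expressed genes) and below all other 11 libraries in 280 (40.5%, against 11.3%). Blank replicates 2 and 3 were both above all other 10 libraries in 203 of the 691 (29.4%), against 6.14% of all expressed genes. For the 303 genes higher in replicate 1, it lay within the range of the 9 in 99 (32.7%, against the same 70.0%) and above all other 11 in 204 (67.3%), against 14.3% of all expressed genes. These shares do not stand alone, since the 691 and 303 genes were chosen by the same values of the blank libraries.

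By a margin of more than 2-fold, blank replicates 2 and 3 stood above all other 10 libraries in 62 expressed genes (0.427%) and below them in 4 (0.0276%). A mean of 1 FPKM can be reached through replicates 2 and 3 alone, whereas a gene low in both must reach it through replicate 1. Both counts are thus set in part by the filter, and nothing is read from their contrast. The genes named here were chosen after their values were seen. CA9 was one of the 62, with at most 0.229 FPKM in any of the other 9 libraries. UCHL1, a deubiquitinase, had 0, 439 and 569 reads in the blank replicates and at most 0.106 FPKM elsewhere. IGFBP4, which binds insulin-like growth factors, had 2, 352 and 374 reads, and GREM1, an antagonist of bone morphogenetic proteins, had 9, 761 and 936 reads. BASP1 did not pass 0.297 FPKM in the 9 libraries and MMP1 did not pass 5.11 FPKM. For CA9, UCHL1, IGFBP4, GREM1, BASP1 and MMP1, replicate 1 lay in or near the range of the treated libraries. That replicates 2 and 3 stood apart in these genes follows from the rule that chose the 62, and nothing more is read from it.

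A count by reads picked out a set of genes that shares CXCL1, CSF3, FOXR1, CHCHD10 and POPDC3 with the 62 above. In 16 genes, all protein coding, blank replicates 2 and 3 each held at least 50 reads while each of the other 10 libraries held at most 3. For the 11 other pairs of replicates of a group there were 0 such genes, and for single libraries 10 of 12 had 0 and the other 2 had 1. CXCL1, a chemokine near CXCL8 on chromosome 4 (73869393 to 73871242), had 0, 138 and 141 reads in the blank libraries and 0 in all others. SPRY4, an inhibitor of growth factor signaling, had 0, 284 and 291 reads and CD24, a surface glycoprotein, 0, 91 and 99 reads, and both had 0 in all others too. The growth factor G-CSF (CSF3) had 0, 163 and 198 reads, the transcription factor FOXR1 0, 146 and 165 reads, MARCKS 0, 182 and 168 reads and CHCHD10, a mitochondrial protein, 0, 91 and 80 reads. All of these were low even where they were present, between 0.977 and 4.15 FPKM.

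**Figure D5:**
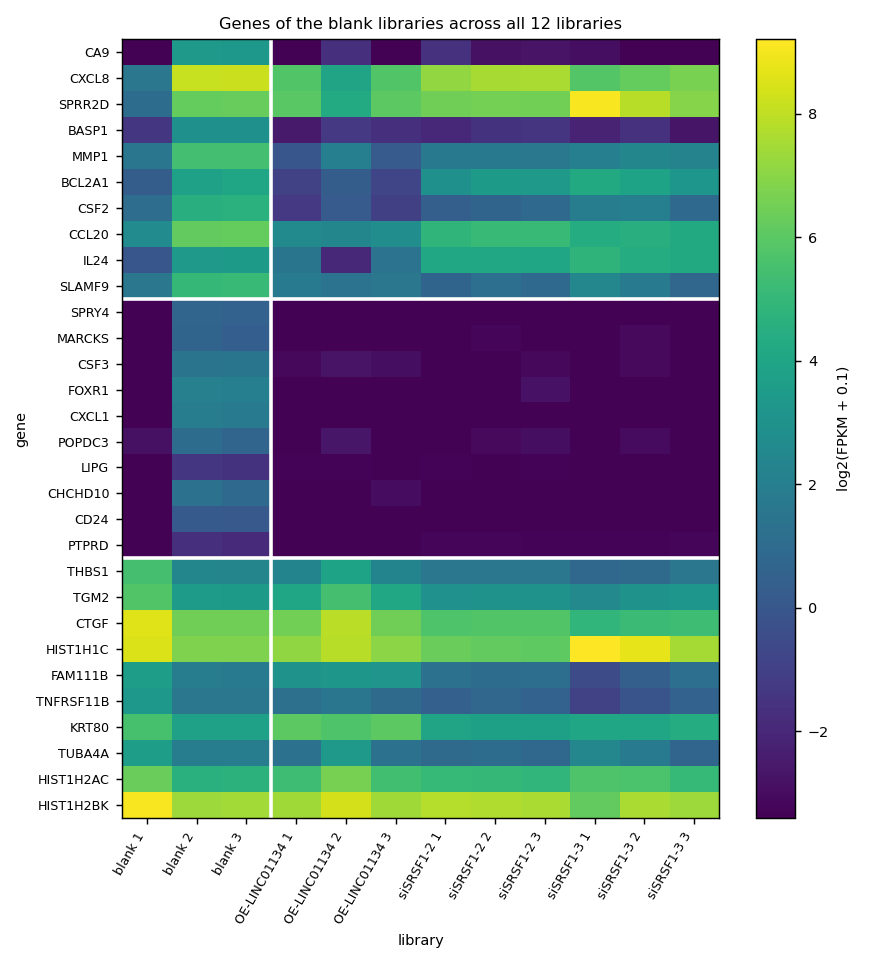
log2(FPKM + 0.1) in color of 30 genes in all 12 libraries: the 10 protein-coding genes with the largest differences below replicates 2 and 3 (top), 10 of the 16 genes of at least 50 reads in blank replicates 2 and 3 and at most 3 elsewhere (middle) and the 10 with the largest differences above (bottom). In the middle block the columns of blank 2 and blank 3 are lighter than the other 10, whereas CXCL8 and SPRR2D are darkest in blank 1.

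In other genes replicate 1 was the library that stood apart. It was more than 2-fold above all other 11 libraries in 28 expressed genes (0.193%) and below all of them in 61 (0.420%). The same counts are not given for other libraries, so how unusual they are is not shown. The filter on the mean bears on both counts, and nothing is read from their contrast. CAVIN2, a coat protein of caveolae, was at 3.53, 0.218 and 0.123 FPKM in the blank replicates and at most 0.567 FPKM in the 9 others. THBS1 did not pass 15.0 FPKM in the 9 libraries, HSPA8 did not pass 120.4 FPKM and SAA1, an acute phase protein, at 92.1, 34.2 and 31.7 FPKM in the blank replicates, did not pass 41.6 FPKM. On the low side, CXCL8 ranged from 15.7 to 192 FPKM in the 9 libraries against 2.97 FPKM in replicate 1. SPRR2D was at least at 19.9 FPKM there, TSLP, an epithelial cytokine, at least at 3.96 FPKM against 0.768, and GDF15 at least at 81.3 FPKM against 29.0.

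Compared with each other library over the 14508 expressed genes, replicate 1 had its highest correlation, 0.959, with OE-LINC01134 replicate 2, above the 0.934 with its own group. Blank replicates 2 and 3 had their highest correlation, 0.983, with each other. Both also correlated with the siSRSF1-2 libraries and siSRSF1-3 replicate 3 at 0.937 to 0.939, above their 0.934 with replicate 1. OE-LINC01134 replicate 2 also stood apart from its own group, more than 2-fold above both others in 466 of 14294 genes (3.26%) and below both in 465 (3.25%). Of the 303 genes higher in blank replicate 1, 49 were also higher in that library against its own group (16.2%, and 10.5% of its 466), and of the 691 lower genes 79 were also lower (11.4%, and 17.0% of its 465). CTGF was at 239 FPKM there against 89.6 FPKM in OE-LINC01134 replicate 3, with replicate 1 of that group not given here. TGM2 was at 44.7 FPKM in OE-LINC01134 replicate 2 against 16.2 and 16.9 FPKM in the other 2 of its group. LINC01134 was at 1279 FPKM in that library. The cause of its likeness to blank replicate 1 was not tested. Uneven replicates were also found in the siSRSF1-3 group, whose pairs differed by more than 2-fold in 10.8% to 30.8% of genes, but not in the siSRSF1-2 group, with 1.77% to 1.88%. SYP, by contrast, was at 2.33 to 2.98 FPKM in all 3 OE-LINC01134 libraries, close to the 2.80 FPKM of blank replicate 1, and at 12.2 to 19.6 FPKM in the siRNA libraries, close to or above blank replicates 2 and 3.

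Genes of types other than protein coding that separated replicate 1 rested on fewer reads. TRBC2, a constant segment of the T cell receptor, had 95, 5 and 8 reads, LINC02474 had 216, 17 and 13 and LINC02582 had 379, 35 and 34. In the other direction MT1L, a metallothionein pseudogene, had 3, 169 and 191 reads and LINC01081 1, 123 and 122. Replicates 2 and 3 again agreed in each. The short genes MIR6087 (6, 0 and 0 reads), RNU6-1223P (9, 0 and 0 reads), RNU7-49P (0, 9 and 5 reads) and MIR8078 (0, 6 and 5 reads) were named by the same rule, but their counts are too small for a statement on their level.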

How the data were processed

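The mRNA of U2OS cells was measured by RNA-Seq in 12 libraries of 4 groups with 3 replicates each. The authors deposited 1 table of FPKM values, with gene length, position, type and full name beside them and no columns of comparisons. The submitters' processing notes name the mouse builds GRCm38 and mm10, but the genes carry human identifiers. The human build, aligner and counter are not given in the sources used here, so positions are printed as in the table. The labels and the study's methods name different library kits. The table names genes by Ensembl identifier and full name, and symbols were assigned where a full name matched 1 gene. The blank columns were taken from their name, U2OS with a replicate number and no agent. No human sequence was at hand, and none is printed.

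Each FPKM value was a whole multiple of the value of 1 read, to within 0.000156 of a read, so read numbers were recovered and served for depth and limits. The implied library size was 0.712 to 1.09 times the reads on genes, so the deposited FPKM carry a scaling of their own.

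The blank libraries were compared as log2(FPKM + 0.1) over genes whose mean FPKM reached 1, and a gene was counted for 1 library where it differed more than 2-fold from both others. With 1 library against the others of its group no test was made. Named were the 10 protein-coding and 10 other genes of highest mean, genes of the lists, the 3 highest of each family, the 10 protein-coding genes (mean FPKM of at least 5) and 5 other genes each with the largest differences of replicate 1 in either direction, SRSF1 and LINC01134. Other genes are named as chosen after their values were seen. There were 28 lists by symbol, of which all 321 symbols matched, 20 by full name and 6 families added later (chemokines, interleukins, metallopeptidases, metallothioneins, tubulins and S100 proteins). The members and lists were chosen with earlier results of these data known. Genes with near-identical or overlapping copies are uncertain, since the counting is not described. Alternatives were another pseudocount, filter, fold and scaling and leaving out each replicate. Scripts were tested on data with known answers and ran in Python 3.11.15 with numpy 2.4.6, pandas 2.3.3 and matplotlib 3.10.9. Values of 3 genes and of 1 list are not reported here.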

Additional observations from a re-analysis of the deposited data

How the results depend on the processing

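No paired analysis was possible because the results come from no test. The number of expressed genes was 7760 at a mean FPKM of at least 5 and 14436 to 14600 when 1 library was left out. Genes under a mean of 0.1 numbered 32746, and 22898 to 23608 genes had 0 reads when 1 library was left out. The top 100 genes held 39.6% among protein-coding genes, 20.1% of reads and 37.6% among genes of at least 300 bases, and 38.3% to 39.0% without 1 library. The mitochondrial share was 6.70% of reads, and 22.9% to 23.4% of FPKM without 1 library.

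Genes higher in replicate 1 numbered 165 with a pseudocount of 1, 1553 without a filter, 133 at a mean of at least 5, 556 on TPM, 1278 at 1.5-fold and 441 to 469 against 1 other library. Genes lower in replicate 1 numbered 338, 2056, 205, 1761 and 1537 under the same settings, and 820 to 843 against 1 other library. Between replicates 2 and 3 the counts were 97, 3921, 15, 1208 and 558, and 10 with at least 50 reads on average. TPM put 19949 genes over the threshold, so its counts cover more genes. The median difference of all genes turned from 0.05 to -0.0387 on TPM and to -0.0656 on the library's own read total. On TPM and own read total, in that order, receptor tyrosine kinases turned to -0.0895 and -0.12, interferon-stimulated genes to -0.0314 and -0.0582, zinc finger proteins to -0.0856 and -0.11, integrins to -0.0473 and -0.0753 and S100 proteins to -0.0729 and -0.10, and reference genes to -0.00314 on own read total. Without replicates 2 and 3 in turn, the medians were -0.0300 and 0.0249 for mesenchymal genes, 0.00741 and -0.0154 for receptor tyrosine kinases and 0.0246 and -0.00670 for zinc finger proteins. The cause was not tested.

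Of 210 list medians over 42 lists and other settings, 14 changed sign. Rescaling to own read totals, the minimum of 50 reads, averaging replicates 2 and 3 as 1 library and the comparisons against 1 other library were chosen after seeing the data.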

Other observations

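Near the beta-globin genes, HBB and a pair of olfactory receptors were expressed. HBB, on chromosome 11 at 5225464 to 5229395, was present in all 12 libraries at 5.93 to 50.9 FPKM. Its neighbors HBD and HBG1 had 0 reads in each blank library. The globin genes HBG2 and HBE1 are not covered here. The olfactory receptors OR51B4 (1.86, 1.28 and 0.983 FPKM) and OR51B5 (3.52, 4.48 and 4.63 FPKM) lie 71.6 and 74.0 kb from HBB.

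The defensin DEFB103A was expressed by its mean alone. It had 1, 0 and 241 reads in the blank replicates and at most 0.134 FPKM in the other 9 libraries. A near-identical gene copy is known, so the level is uncertain.

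Among low transcripts, 68 of 427 small nucleolar RNAs passed 1 FPKM, with a median difference of replicate 1 of 0.77 on the log2 scale, 14 past 2-fold upward and 3 downward, but 20 also passed 2-fold between replicates 2 and 3. ALDOA, an enzyme of glycolysis, stood at 2.03, 2.17 and 2.56 FPKM, far below GAPDH, and another gene listed in the table overlaps it, so its level is uncertain. S100A11, a calcium-binding protein, was the highest S100 gene at 420.0, 484 and 505 FPKM. Prostaglandin synthase PTGS2 (0.870, 7.71 and 7.62 FPKM), the iron-binding LCN2 (0.814, 8.01 and 7.54 FPKM) and the tight junction protein CLDN1 (6.01, 23.2 and 22.95 FPKM) were lowest of all 12 libraries in blank replicate 1. TLR4, a receptor for bacterial lipid (5.77, 1.14 and 1.07 FPKM), and the protease ADAMTS12 (8.47, 2.81 and 2.57 FPKM) were highest there. These genes were named after their values were seen.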
